A study of Homo sapiens with 8 samples.

Results

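Messenger RNA of 36 genes that make cholesterol and fatty acids, or control that synthesis, was followed in 2 human carcinoma lines treated with an inhibitor of the NEDD8 pathway. The genes were taken by symbol from a list of genes of the sterol regulatory element binding protein (SREBP) pathway, and all 36 were found among the 61533 genes counted. They comprise 5 regulators (SREBF1, SREBF2, SCAP, INSIG1, INSIG2), 17 enzymes from acetyl-CoA to cholesterol, 4 genes of sterol movement and removal (STARD4, MYLIP, ABCA1, ABCG1), 3 genes of acetyl-CoA supply and use (ACLY, ACSS2, AACS) and 7 genes of fatty acid synthesis, desaturation and activation. The 17 enzymes are called the sterol branch here, and the last 10 genes the fatty acid branch. Each of the 36 passed the filter on low counts that left 18738 genes for testing.

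The 4 groups were A431 cells (labelled human epidermoid carcinoma) with DMSO, A431 cells with NEDD8i, CAL27 cells (labelled squamous cell carcinoma) with DMSO, and CAL27 cells with NEDD8i. Each group had 2 libraries, and all cells were collected after 16 h. DMSO is the solvent control. The labels give the inhibitor only as NEDD8i, and the sources used here give neither its dose nor any genetic change made to either line. Whether both libraries of a group stem from different cultures is not stated, and the p-values then reflect no more than the spread of these libraries, which may be technical.

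The sterol and fatty acid pathways both start from acetyl-CoA in the cytosol and share their main transcription factors, the SREBPs. SREBP precursors sit in the endoplasmic reticulum bound to SCAP, and INSIG proteins hold that complex there when sterols are plentiful. When sterols run low, the complex moves to the Golgi, where proteases release the active factor. In the nucleus, active SREBPs are removed by ubiquitin ligases of the cullin type, and cullins work when NEDD8 is attached to them. These statements are background and were not measured here.

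Library totals were 49037868 to 62509817 counts, and 3 counts in a library equal 0.048 to 0.0612 CPM. CPM are counts relative to library size, here scaled by TMM factors, a correction for the makeup of each library. Of 7 squamous epithelial markers, all were detected in each group, with summed levels of 8868 to 8954 CPM (A431 DMSO), 10776 to 11147 (A431 NEDD8i), 12715 to 12775 (CAL27 DMSO) and 14890.2 to 15452 (CAL27 NEDD8i). TP63, the defining squamous transcription factor, fell in CAL27 under NEDD8i (log2 fold change -2.18), and its log2 fold change in A431 was -0.10, which did not pass. KRT5 fell in both lines (-0.43 in A431 and -0.27 in CAL27). The remaining squamous markers rose in both, in the same order of lines: KRT14 (0.84 and 0.44), KRT6A (1.01 and 1.71), DSG3 (1.26 and 0.99), CDH1 (0.66 and 0.25) and EPCAM (0.65 and 0.64). PTPRC of leukocytes, ADIPOQ and LEP of adipocytes, and ALB of hepatocytes had 0 counts in all 8 libraries. The summed 4 leukocyte markers, nearly all of it CD14, went from between 6.31 and 6.64 CPM to between 0.875 and 1.75 in A431 and from between 16.3 and 17.8 to between 1.74 and 1.77 in CAL27. Summed fibroblast markers (5 genes) went from between 35.3 and 38.6 CPM to between 17.6 and 18.3 in A431 and from between 20.2 and 23.7 to between 6.45 and 10.6 in CAL27, and summed endothelial markers (3 genes) from between 19.6 and 21.9 to between 5.23 and 5.56 and from between 5.95 and 6.63 to between 10.3 and 10.7. Adipocyte and hepatocyte sums stayed at or below 0.525 CPM in each library. Whether these marker changes have a part in the results on lipid genes was not tested. The labels name only the carcinoma lines, so a marker level here is no count of cells of that kind. Which cells held this RNA was not tested. In bulk RNA, fewer cells of a kind and less RNA per cell cannot be told apart.

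With NEDD8i, most lipid synthesis genes went up in A431 and down in CAL27. In A431, 22 of the 36 rose, 7 fell and 7 did not pass (edgeR quasi-likelihood test, adjusted p under 0.05), against 43.6% of all genes tested that passed in either direction (22.5% rose and 21.1% fell). In CAL27, 4 rose, 26 fell and 6 did not pass, where 49.6% of all genes tested passed (23.2% rose and 26.4% fell). The median log2 fold change of the 36 was 0.46 in A431 and -0.66 in CAL27, and over all genes tested it was -0.01 and -0.04. These genes were abundant, with a median of 66.8 CPM against 8.75 over all genes tested, and 35 of the 36 averaged at least 10 CPM. Among the 9063 genes at or above that level, 67% passed in A431 and 73.5% in CAL27, so the share of lipid genes that passed, 80.6% and 83.3%, was nearer to those shares than to the shares of all genes tested.

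Many of the genes moved in opposite directions in the lines. A total of 13 genes rose in A431 and fell in CAL27, and no gene did the reverse. Over all genes tested, 3.29% rose in A431 and fell in CAL27, 1.7% did the reverse, and 4.99% therefore passed in opposite directions. Of the genes of at least 10 CPM, 6.09% rose in A431 and fell in CAL27. The 13 were HMGCS1, MVD, FDFT1, SQLE, MSMO1, HSD17B7, SC5D and DHCR7 of the sterol branch, ACSS2, SCD, ELOVL6 and FADS2 of the fatty acid branch, and STARD4. Another 11 genes passed in the same direction in both lines, as did 26.1% of all genes tested. INSIG2, FDPS, CYP51A1 and FADS1 rose in both, and SREBF1, SREBF2, INSIG1, PMVK, LSS, MYLIP and ACACA fell in both. EBP was the 1 gene that passed in neither line.

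The test of the difference between the responses passed for 31 of the 36 genes, 30 of them lower in CAL27 and 1 higher. Over all genes tested 34% passed, 19.8% lower and 14.2% higher in CAL27, and 56.7% passed among those of at least 10 CPM. At least a 2-fold difference was seen in 16 of the 36, against 10.8% of all genes tested. Including those that did not pass, 34 of 36 log2 fold changes were lower in CAL27 than in A431, and INSIG2 and EBP were the exceptions. Over all genes tested 52% were lower in CAL27. Across the 36 genes the log2 fold changes in the lines still correlated, with Pearson r = 0.62 and Spearman rho = 0.59, and across all genes tested r was 0.37 and rho 0.43. These genes share libraries and are not independent, so the correlations only describe the scatter of both responses.

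**Figure D1:**
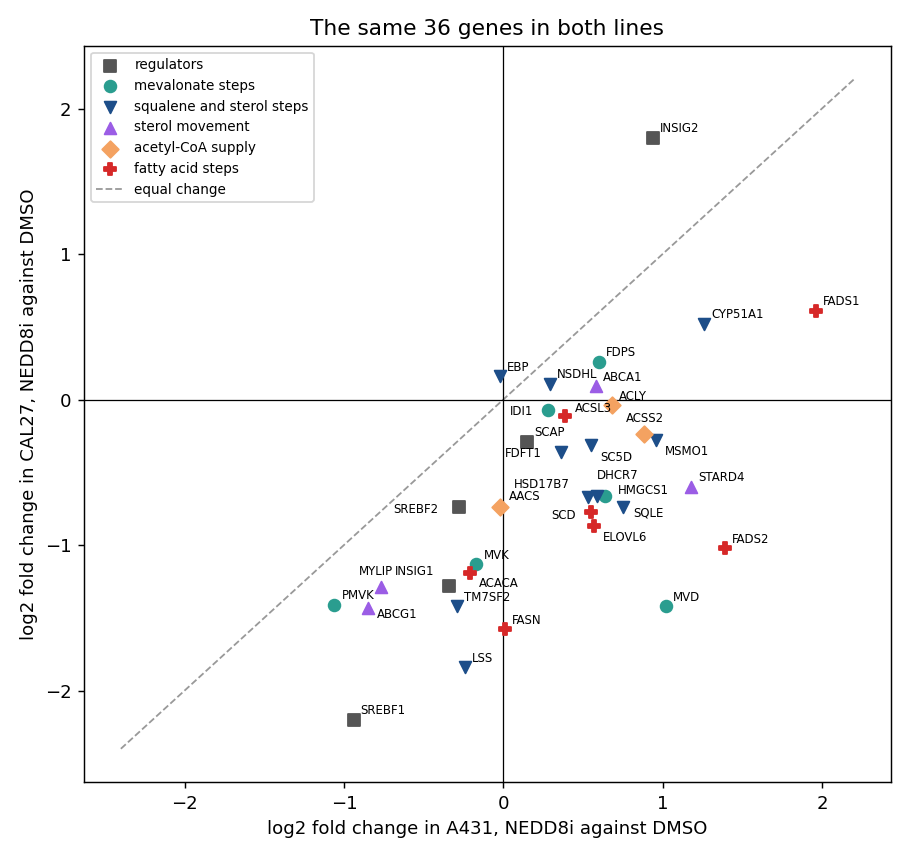
Log2 fold change of each of the 36 genes with NEDD8i against DMSO, in A431 (horizontal) and in CAL27 (vertical), with marker shape and color for its role and a dashed line of equal change. Apart from INSIG2 and EBP, the points lie below the dashed line, and many lie at the lower right, higher in A431 and lower in CAL27.

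The same split was seen in the sterol and the fatty acid branch. In A431, 12 of 17 sterol branch enzymes rose and 2 fell, and 7 of 10 fatty acid branch genes rose and 1 fell. In CAL27, 2 rose and 12 fell in the sterol branch, and 1 rose and 7 fell in the fatty acid branch. Median log2 fold changes were 0.53 (sterol) and 0.56 (fatty acid) in A431, and -0.66 and -0.76 in CAL27. The median difference between the lines was -0.97 for the sterol branch and -1.22 for the fatty acid branch, and no test compared the branches, since genes are not replicates.

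Summed over its 17 enzymes, the sterol branch stood at 1434 and 1405 CPM in the A431 DMSO libraries and at 2068 and 1951 with NEDD8i. In CAL27 the sterol sum was 1422 and 1466 CPM with DMSO and 1006 and 994 with NEDD8i. Both lines therefore began at about the same sum, 1419.6 ± 20.7 and 1443.6 ± 31.2 CPM (mean ± SD, n = 2). They ended on either side of their DMSO level, at 141.6% of it in A431 and at 69.3% in CAL27. The near-equal DMSO sums hide differences by gene: 5 of the 17 enzymes were higher in CAL27, 9 were lower and 3 did not pass. Over all genes tested, 58.9% passed. DHCR7 averaged 107 CPM in A431 and 311 in CAL27. Without the largest gene of each library, the DMSO sums averaged 1224 and 1132 CPM. The NEDD8i sums were then 135.8% and 71% of them. The gene left out was DHCR7 in CAL27, but in A431 it was SQLE with DMSO and MSMO1 with NEDD8i. The A431 percentage therefore compares sums over different genes. The fatty acid sum was 4682 and 4711 CPM in A431 with DMSO and 6577 and 6369 with NEDD8i, or 137.8% of the DMSO mean. In CAL27 the fatty acid sum was 3315 and 3429 CPM with DMSO and 1937 and 1986 with NEDD8i, or 58.2%. No library of a NEDD8i group overlapped with the DMSO libraries of its line in either sum. SCD gave 42.8% to 50.7% of the counts in the fatty acid sum, and without it the sum was 129.9% of the DMSO level in A431 and 57.8% in CAL27.

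**Figure D2:**
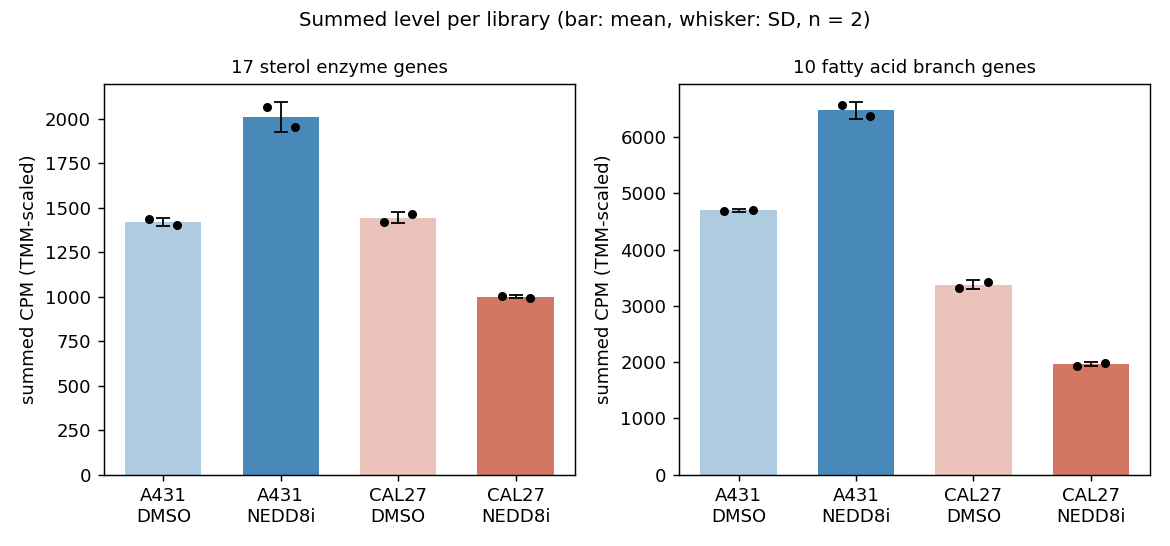
Summed CPM (vertical axis, from 0) of the 17 sterol branch enzymes and of the 10 fatty acid branch genes in each group, with a point for each of the 2 libraries and a bar at their mean. NEDD8i libraries lie above the DMSO libraries in A431 and below them in CAL27 in both panels.

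Promoter sequence was read for the members as a description only. RefSeq start sites of GRCh38.p14 gave the 250 bases before the start for 32 of the 36 genes, and FDFT1, SQLE, ABCG1 and FASN had none. The form TCACNCCAC, a type of sterol regulatory element, was found in 1 of 32 genes, SREBF2, starting 133 bases before the start, and in 1.18% of 12087 tested genes with a promoter in the table. The CCAAT box, a binding site of NF-Y, was found in 22 of 32 (68.8%) against 40.8% of tested genes. By branch it was found in 13 of 15 sterol genes (86.7%) and in 5 of 9 fatty acid genes (55.6%). The GC box GGGCGG, a binding site of Sp1, was found in 31 of 32 (96.9%) against 71.5%. CACGTG, an E-box, was found in SCAP, INSIG1, SC5D and ABCA1 (12.5%), against 10.8% of tested genes. Over all 27305 genes of the promoter table, the shares were 1.09% for TCACNCCAC, 37% for CCAAT, 46.2% for GGGCGG and 7.73% for CACGTG. Shares over genes of at least 10 CPM, the level of most of the 36, were not computed. Both strands were searched, a gene with several start sites counted when any of them held a match, and matches are letters in a window, not tested sites.

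The 5 promoters below show this at a gene for an SREBP itself (SREBF2, chr22:41832855-41833104, plus strand), at the INSIG gene that fell in both lines (INSIG1, chr7:155297628-155297877, plus strand) and at 3 genes that rose in A431 and fell in CAL27. The latter are MVD (chr16:88663092-88663341, minus strand), MSMO1 (chr4:165327419-165327668, plus strand) and SCD (chr10:100346983-100347232, plus strand). Each runs 5′ to 3′ on the strand of the gene and ends at the base before the start. Capitals mark matches on either strand. A CCAAT box on the other strand appears here as ATTGG. A GC box on the other strand starts with CCG. The sterol regulatory element form of SREBF2 is on the strand shown, and INSIG1 also shows its E-box.
SREBF2: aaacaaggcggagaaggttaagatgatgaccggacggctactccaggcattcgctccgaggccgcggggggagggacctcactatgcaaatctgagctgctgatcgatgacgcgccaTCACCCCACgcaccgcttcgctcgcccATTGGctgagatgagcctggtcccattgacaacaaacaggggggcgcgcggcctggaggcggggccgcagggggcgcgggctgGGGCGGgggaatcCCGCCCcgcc
INSIG1: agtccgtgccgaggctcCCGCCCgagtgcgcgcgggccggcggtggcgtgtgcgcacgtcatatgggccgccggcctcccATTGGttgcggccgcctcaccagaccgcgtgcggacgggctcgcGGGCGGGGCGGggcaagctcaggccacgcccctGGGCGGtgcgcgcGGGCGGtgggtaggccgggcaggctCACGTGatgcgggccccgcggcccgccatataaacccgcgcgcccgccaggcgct
MVD: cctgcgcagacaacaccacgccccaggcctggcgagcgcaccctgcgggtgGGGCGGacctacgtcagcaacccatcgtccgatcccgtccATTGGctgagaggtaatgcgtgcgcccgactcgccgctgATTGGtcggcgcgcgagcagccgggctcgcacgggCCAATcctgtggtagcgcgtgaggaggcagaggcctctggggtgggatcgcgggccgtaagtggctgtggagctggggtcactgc
MSMO1: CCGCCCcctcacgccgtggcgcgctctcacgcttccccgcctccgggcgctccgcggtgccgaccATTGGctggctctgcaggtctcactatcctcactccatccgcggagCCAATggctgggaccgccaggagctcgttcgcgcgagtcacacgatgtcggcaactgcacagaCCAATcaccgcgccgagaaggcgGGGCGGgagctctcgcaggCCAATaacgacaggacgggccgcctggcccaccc
SCD: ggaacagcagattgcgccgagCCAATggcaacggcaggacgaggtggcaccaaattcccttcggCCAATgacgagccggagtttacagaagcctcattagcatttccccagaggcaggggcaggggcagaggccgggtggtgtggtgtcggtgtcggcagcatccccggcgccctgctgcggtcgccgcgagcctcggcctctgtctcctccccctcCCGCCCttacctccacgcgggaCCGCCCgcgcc
MSMO1 holds 4 CCAAT boxes, MVD 3 and SCD 2, and SREBF2 and INSIG1 hold 1 each. INSIG1 holds 5 GC boxes, of which a pair overlaps by a base.

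Of the 5 regulators, 1 rose and 3 fell in A431, and 1 rose and 4 fell in CAL27. SREBF1 (chromosome 17, 17811334 to 17837002, GRCh38 as in the count tables) encodes the SREBP that is best known for fatty acid genes. Its level was 317 and 315 CPM in the A431 DMSO libraries and 168 and 161 with NEDD8i. In CAL27, SREBF1 stood at 363 and 363 CPM with DMSO and at 79 and 78.5 with NEDD8i. NEDD8i libraries were thus lower in both lines, with log2 fold changes of -0.94 ± 0.04 (SE, n = 2 per group, as for each change below; edgeR adjusted p = 1.64e-11) and -2.20 ± 0.05 (edgeR adjusted p = 2.79e-16). The CAL27 fall was the larger, by -1.26 ± 0.06 on the log2 scale (edgeR adjusted p = 1.15e-10). SREBF2, which encodes the SREBP best known for sterol genes, stood at 413 and 414 CPM with DMSO and 346 and 335 with NEDD8i in A431. Its CAL27 levels were 308 and 309 CPM with DMSO and 184 and 184 with NEDD8i. It fell in both lines without overlap of the libraries, by a log2 fold change of -0.28 ± 0.04 in A431 and -0.74 ± 0.04 in CAL27. SCAP, the escort of the SREBPs, fell in CAL27 (-0.29 ± 0.07) and had 0.15 ± 0.06 in A431, which did not pass (edgeR adjusted p = 0.0806). Without CAL27 NEDD8i replicate 1 or 2 the A431 value of SCAP was 0.16 and passed (edgeR adjusted p = 0.0486 and 0.0478).

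The pair of INSIG genes moved in opposite directions in both lines. INSIG1, itself a known SREBP target, stood at 96.2 and 93.4 CPM with DMSO and 76.1 and 73.3 with NEDD8i in A431. In CAL27, INSIG1 went from 110.5 and 114 CPM with DMSO to 45.2 and 46.9 with NEDD8i. INSIG1 fell in both, by log2 fold changes of -0.34 ± 0.06 and -1.28 ± 0.06. INSIG2 (chromosome 2, 118088471 to 118110997), the form known to be less dependent on SREBP, stood at 32.7 and 30.9 CPM with DMSO and 60.7 and 61.4 with NEDD8i in A431. Its CAL27 levels were 19.8 and 21.7 CPM with DMSO and 70.6 and 74.2 with NEDD8i. INSIG2 libraries with NEDD8i were higher in both lines, with log2 fold changes of 0.94 ± 0.07 (edgeR adjusted p = 1.48e-08) and 1.80 ± 0.08 (edgeR adjusted p = 2.48e-12). It is the only one of the 36 genes whose difference between the lines passed with a higher value in CAL27 (0.86 ± 0.11, edgeR adjusted p = 5.33e-06).

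The mevalonate steps, which turn acetyl-CoA into farnesyl diphosphate, split in A431: of 6 genes, 4 rose, 1 fell and 1 did not pass. In CAL27, 1 rose, 4 fell and 1 did not pass. MVD, mevalonate diphosphate decarboxylase (chromosome 16, 88651940 to 88663091), stood at 40.9 and 36.9 CPM with DMSO and 84.9 and 72.8 with NEDD8i in A431. In CAL27, MVD stood at 45.7 and 48.4 CPM with DMSO and 17.7 and 17.6 with NEDD8i. The DMSO levels were close, and NEDD8i carried them apart, with log2 fold changes of 1.02 ± 0.08 and -1.42 ± 0.09. The difference of -2.43 ± 0.12 (edgeR adjusted p = 1.25e-10) and that of FADS2 were the 2 largest in size among the 36 genes, and which of them led changed with the library left out. HMGCS1, the cytosolic HMG-CoA synthase, stood at 82.7 and 84.9 CPM with DMSO and 131 and 130.2 with NEDD8i in A431. Its CAL27 levels were 122 and 127 CPM with DMSO and 79.8 and 77 with NEDD8i, so it also crossed, by 0.64 ± 0.05 and -0.66 ± 0.05. Exons of other genes cover 45.8% of the exonic bases of HMGCS1, where reads are dropped or cannot be assigned by strand, so its level is uncertain.

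MVK and PMVK, the kinases that act on mevalonate and phosphomevalonate, did not rise in A431. MVK stood at 49.7 and 44 CPM with DMSO and 41.4 and 42 with NEDD8i in A431, and these lay close together without overlap (-0.17 ± 0.08, edgeR adjusted p = 0.114). Without A431 DMSO replicate 2 the A431 value was -0.26 and passed (edgeR adjusted p = 0.0486), and without A431 DMSO replicate 1 it was -0.07 (edgeR adjusted p = 0.669). In CAL27, MVK fell from 41.5 and 43.4 CPM with DMSO to 18.4 and 20.2 with NEDD8i (-1.13 ± 0.09). PMVK stood at 31.1 and 31.3 CPM with DMSO and 16.2 and 13.9 with NEDD8i in A431, and at 12.4 and 14.6 with DMSO against 4.81 and 5.33 with NEDD8i in CAL27. It fell in both lines (-1.06 ± 0.12 and -1.41 ± 0.13), and the difference of -0.35 ± 0.18 did not pass (edgeR adjusted p = 0.145). FDPS, farnesyl diphosphate synthase, rose in both (0.60 ± 0.05 and 0.26 ± 0.05), and it has near-identical pseudogenes, so part of its reads can be lost. IDI1, the isomerase before it, rose in A431 (0.28 ± 0.07) and had -0.07 ± 0.07 in CAL27, which did not pass. Without A431 NEDD8i replicate 1 the A431 value of IDI1 was 0.22 and did not pass (edgeR adjusted p = 0.0524).

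**Figure D3:**
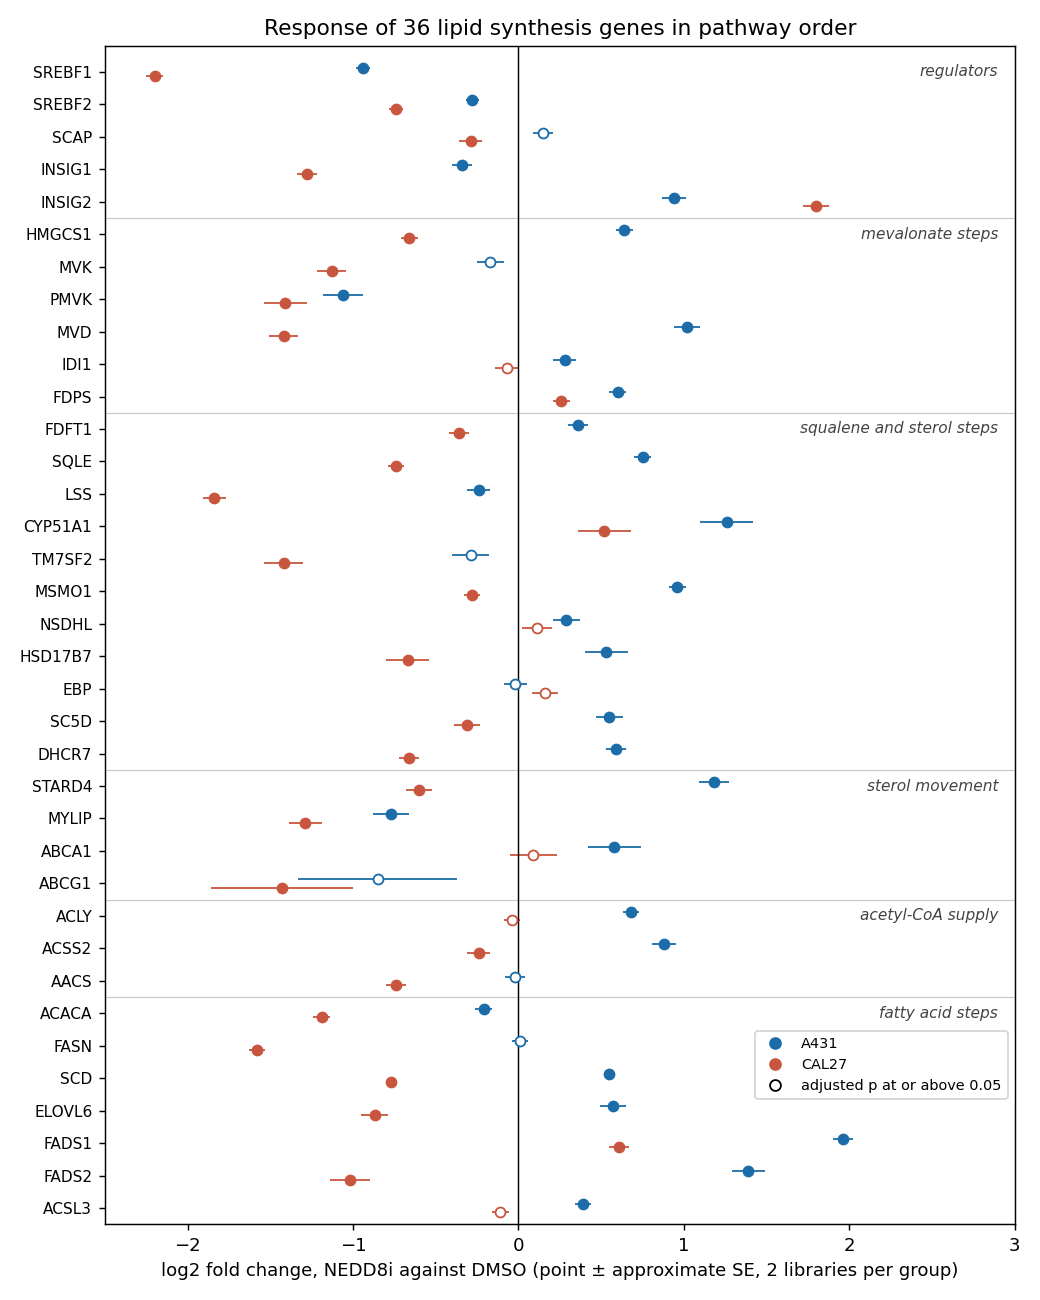
Log2 fold change with NEDD8i against DMSO (horizontal axis) for the 36 genes in pathway order, in A431 and in CAL27, as points with approximate standard errors from 2 libraries per group. Most sterol and fatty acid genes lie right of 0 in A431 and left of 0 in CAL27, and SREBF1, SREBF2 and INSIG1 lie left of 0 in both.

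From squalene to cholesterol, 8 of 11 genes rose and 1 fell in A431, and 1 rose and 8 fell in CAL27. SQLE, squalene epoxidase, a rate-limiting step of the later pathway, stood at 197 and 194 CPM with DMSO and 334 and 326 with NEDD8i in A431. In CAL27, SQLE stood at 118 and 124 CPM with DMSO and 71.2 and 73.4 with NEDD8i. Its changes were near mirror images, 0.75 ± 0.05 in A431 and -0.74 ± 0.05 in CAL27. FDFT1, squalene synthase, stood at 179 and 186 CPM with DMSO and 249 and 219 with NEDD8i in A431, and at 215 and 217 with DMSO against 165 and 171 with NEDD8i in CAL27. The same crossing was smaller there (0.36 ± 0.06 and -0.36 ± 0.06). MSMO1, the sterol methyl oxidase, stood at 188 and 169.7 CPM with DMSO and 346 and 348 with NEDD8i in A431, and at 105 and 106 with DMSO against 87.5 and 86 with NEDD8i in CAL27. Its rise in A431 (0.96 ± 0.05) exceeded its fall in CAL27 (-0.28 ± 0.05) in size. DHCR7, which makes cholesterol from its last precursor, stood at 109 and 106 CPM with DMSO and 169 and 155 with NEDD8i in A431, and at 309 and 313 with DMSO against 207 and 186 with NEDD8i in CAL27. It crossed too (0.59 ± 0.06 and -0.66 ± 0.06), but its level remained higher in CAL27 than in A431 with either treatment.

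HSD17B7, a sterol ketoreductase, and SC5D, the sterol desaturase, followed the same course at lower counts. HSD17B7 stood at 12 and 11.4 CPM with DMSO and 18.1 and 15.8 with NEDD8i in A431, and at 13.8 and 14.9 with DMSO against 8.27 and 9.84 with NEDD8i in CAL27. No library overlapped (0.53 ± 0.13 and -0.67 ± 0.13), though a near-identical pseudogene leaves its level uncertain. SC5D stood at 48.8 and 56.6 CPM with DMSO and 79.5 and 74.4 with NEDD8i in A431, and at 40.8 and 41.1 with DMSO against 33.5 and 32.5 with NEDD8i in CAL27, again without overlap (0.55 ± 0.08 and -0.31 ± 0.08).

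LSS and TM7SF2 went down in CAL27 without a rise in A431. LSS, lanosterol synthase, which closes the sterol rings, stood at 94.4 and 91.6 CPM with DMSO and 83.8 and 73.3 with NEDD8i in A431, and at 150.4 and 152 with DMSO against 40.8 and 43.5 with NEDD8i in CAL27. Its fall of -1.84 ± 0.07 was the largest of the sterol branch in CAL27, and its A431 change of -0.24 ± 0.07 passed (edgeR adjusted p = 0.00568) but not without A431 NEDD8i replicate 2 (-0.14, edgeR adjusted p = 0.177). TM7SF2, a sterol reductase, stood at 25.8 and 24.2 CPM with DMSO and 21.3 and 19.8 with NEDD8i in A431, and at 16.1 and 16.5 with DMSO against 5.45 and 6.68 with NEDD8i in CAL27. It fell in CAL27 (-1.42 ± 0.12), and its A431 value of -0.29 ± 0.11 lay at the threshold (edgeR adjusted p = 0.0528), which it passed without CAL27 NEDD8i replicate 1 (0.0406) or 2 (0.0412).

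CYP51A1, the lanosterol demethylase, was the sterol branch enzyme with the largest rise in A431. It stood at 7.87 and 8.61 CPM with DMSO and 22.5 and 17.1 with NEDD8i in A431, and at 7.82 and 7.93 with DMSO against 9.61 and 13 with NEDD8i in CAL27. Libraries did not overlap in either line (1.26 ± 0.16 and 0.52 ± 0.16). Its CAL27 call was lost without CAL27 DMSO replicate 1 (0.53, as large as before, edgeR adjusted p = 0.0542) or NEDD8i replicate 2 (0.29, edgeR adjusted p = 0.223), and exons of other genes cover 78.1% of its own. NSDHL, a sterol dehydrogenase, rose in A431 (0.29 ± 0.08), a call lost without DMSO replicate 2 (0.20, edgeR adjusted p = 0.109) or NEDD8i replicate 1 (0.22, edgeR adjusted p = 0.114), and had 0.11 ± 0.09 in CAL27. EBP, the sterol isomerase, had -0.02 ± 0.07 in A431 and 0.16 ± 0.08 in CAL27, and neither passed, though the CAL27 value did without CAL27 NEDD8i replicate 1 (0.24, edgeR adjusted p = 0.0243). Other exons cover 57.1% of EBP.

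Among the genes of sterol movement, STARD4, which carries cholesterol between membranes and is an SREBP target, followed the enzymes. It stood at 12.6 and 12 CPM with DMSO and 29.6 and 26.1 with NEDD8i in A431, and at 62.3 and 62.8 with DMSO against 43.3 and 39.5 with NEDD8i in CAL27. The level rose in A431 (1.18 ± 0.09) and fell in CAL27 (-0.60 ± 0.08), yet remained higher in CAL27 throughout. MYLIP, a ubiquitin ligase, and ABCA1 and ABCG1, exporters of cholesterol, are known targets of the sterol-sensing LXR receptors. MYLIP stood at 19.7 and 19 CPM with DMSO and 11.9 and 10.9 with NEDD8i in A431, and at 31 and 32.1 with DMSO against 13.2 and 12.5 with NEDD8i in CAL27. It fell in both (-0.77 ± 0.11 and -1.29 ± 0.10), and the difference of -0.52 ± 0.15 (edgeR adjusted p = 0.01) was lost without A431 NEDD8i replicate 1 (-0.45) or CAL27 DMSO replicate 2 (-0.49), each at an edgeR adjusted p of 0.0597.

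Of the exporters, ABCG1 was thinly counted. ABCG1 stood at 1.04 and 0.698 CPM with DMSO and 0.219 and 0.728 with NEDD8i in A431, where the groups overlapped, and at 4.34 and 3 with DMSO against 1.41 and 1.3 with NEDD8i in CAL27. Its A431 libraries held 60 and 36 counts with DMSO and 10 and 40 with NEDD8i. It fell in CAL27 (-1.43 ± 0.43, edgeR adjusted p = 0.01), but not without CAL27 DMSO replicate 1 (-1.12, edgeR adjusted p = 0.136). The A431 value of -0.85 ± 0.48 did not pass, and it hung on single libraries: without A431 NEDD8i replicate 2 it was -1.98 and passed (edgeR adjusted p = 0.0111), without NEDD8i replicate 1 it was -0.26 (edgeR adjusted p = 0.752), and without DMSO replicate 1 it was -0.52 (edgeR adjusted p = 0.516). ABCA1 rose in A431 (0.58 ± 0.16), but not without A431 DMSO replicate 1 (0.43, edgeR adjusted p = 0.0721) or NEDD8i replicate 2 (0.48, edgeR adjusted p = 0.0634), and had 0.09 ± 0.14 in CAL27, which did not pass. The ABCA1 difference of -0.49 ± 0.21 did not pass, and without A431 DMSO replicate 2 it was -0.65 and passed (edgeR adjusted p = 0.0309).

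Acetyl-CoA for both pathways comes from citrate through ACLY and from acetate through ACSS2, and AACS activates acetoacetate for synthesis. ACSS2 stood at 59 and 58.5 CPM with DMSO and 110.3 and 106 with NEDD8i in A431, and at 63.8 and 59 with DMSO against 48 and 55.8 with NEDD8i in CAL27. It rose in A431 (0.88 ± 0.07), and its smaller fall in CAL27 (-0.24 ± 0.07) was lost without CAL27 DMSO replicate 1 (-0.17, edgeR adjusted p = 0.176) or NEDD8i replicate 1 (-0.14, edgeR adjusted p = 0.15). ACLY rose in A431 (0.68 ± 0.05) and had -0.04 ± 0.05 in CAL27. AACS had -0.02 ± 0.06 in A431 and fell in CAL27 (-0.74 ± 0.06). The difference between the lines passed for all 3, at -0.72 for ACLY, -1.13 for ACSS2 and -0.73 for AACS.

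Of 7 genes from malonyl-CoA onward, 5 rose and 1 fell in A431, 1 rose and 5 fell in CAL27, and the difference passed for all 7. The first committed steps did not share the A431 rise. ACACA, acetyl-CoA carboxylase, stood at 355 and 365 CPM with DMSO and 316 and 305 with NEDD8i in A431, and at 272 and 290.1 with DMSO against 125 and 122 with NEDD8i in CAL27, and fell in both (-0.21 ± 0.05 and -1.19 ± 0.05). FASN, fatty acid synthase (chromosome 17, 82078338 to 82098236), stood at 1331 and 1335 CPM with DMSO and 1374 and 1319 with NEDD8i in A431, where the groups overlapped. In CAL27, FASN stood at 927 and 925 CPM with DMSO and 290.5 and 327 with NEDD8i. The log2 fold change was 0.01 ± 0.05 in A431 (edgeR adjusted p = 0.858) and -1.58 ± 0.05 in CAL27 (edgeR adjusted p = 2.76e-14), a difference of -1.60 ± 0.07.

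The steps that modify palmitate rose in A431. SCD, the stearoyl-CoA desaturase (chromosome 10, 100347233 to 100364826), stood at 2229 and 2246 CPM with DMSO and 3329.8 and 3229 with NEDD8i in A431, and at 1418 and 1490.5 with DMSO against 846 and 861 with NEDD8i in CAL27. Without overlap, it rose in A431 (0.55 ± 0.03) and fell in CAL27 (-0.77 ± 0.03). ELOVL6, the elongase that makes stearate, stood at 38.9 and 34.8 CPM with DMSO and 54 and 55.6 with NEDD8i in A431, and at 36.8 and 36.9 with DMSO against 20.2 and 20.1 with NEDD8i in CAL27. It started at nearly the same level in both lines and parted with NEDD8i (0.57 ± 0.08 and -0.87 ± 0.08). ACSL3, which activates long-chain fatty acids, rose in A431 (0.39 ± 0.05) and had -0.11 ± 0.05 in CAL27, which did not pass.

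The desaturases of polyunsaturated fatty acids, FADS1 and FADS2, lie side by side on chromosome 11, and both rose in A431. FADS1 (chromosome 11, 61799627 to 61817003) stood at 153 and 158 CPM with DMSO and 613 and 602 with NEDD8i in A431. In CAL27, FADS1 stood at 84.8 and 97.3 CPM with DMSO and 139 and 138 with NEDD8i. FADS1 was therefore higher with NEDD8i in both lines, 3.9-fold in A431 (1.96 ± 0.06, edgeR adjusted p = 2.23e-14) and 1.52-fold in CAL27 (0.61 ± 0.06, edgeR adjusted p = 6.62e-08). FADS2 (chromosome 11, 61816256 to 61867354) stood at 35.5 and 34.2 CPM with DMSO and 93.7 and 89.3 with NEDD8i in A431. In CAL27, FADS2 stood at 13.2 and 13.8 CPM with DMSO and 7.75 and 5.66 with NEDD8i. The neighbours thus parted in CAL27, where FADS2 fell (-1.02 ± 0.12), after rising together in A431 (1.39 ± 0.10 for FADS2). The FADS2 difference of -2.41 ± 0.15 (edgeR adjusted p = 2.29e-09) was close to that of MVD. They lie on opposite strands with overlapping spans, and strand was not used in counting. Exons of another gene cover 2.87% of the exonic bases of FADS1 and 3.3% of those of FADS2. Whether reads of either gene fall in the shared bases was not tested.

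**Figure D4:**
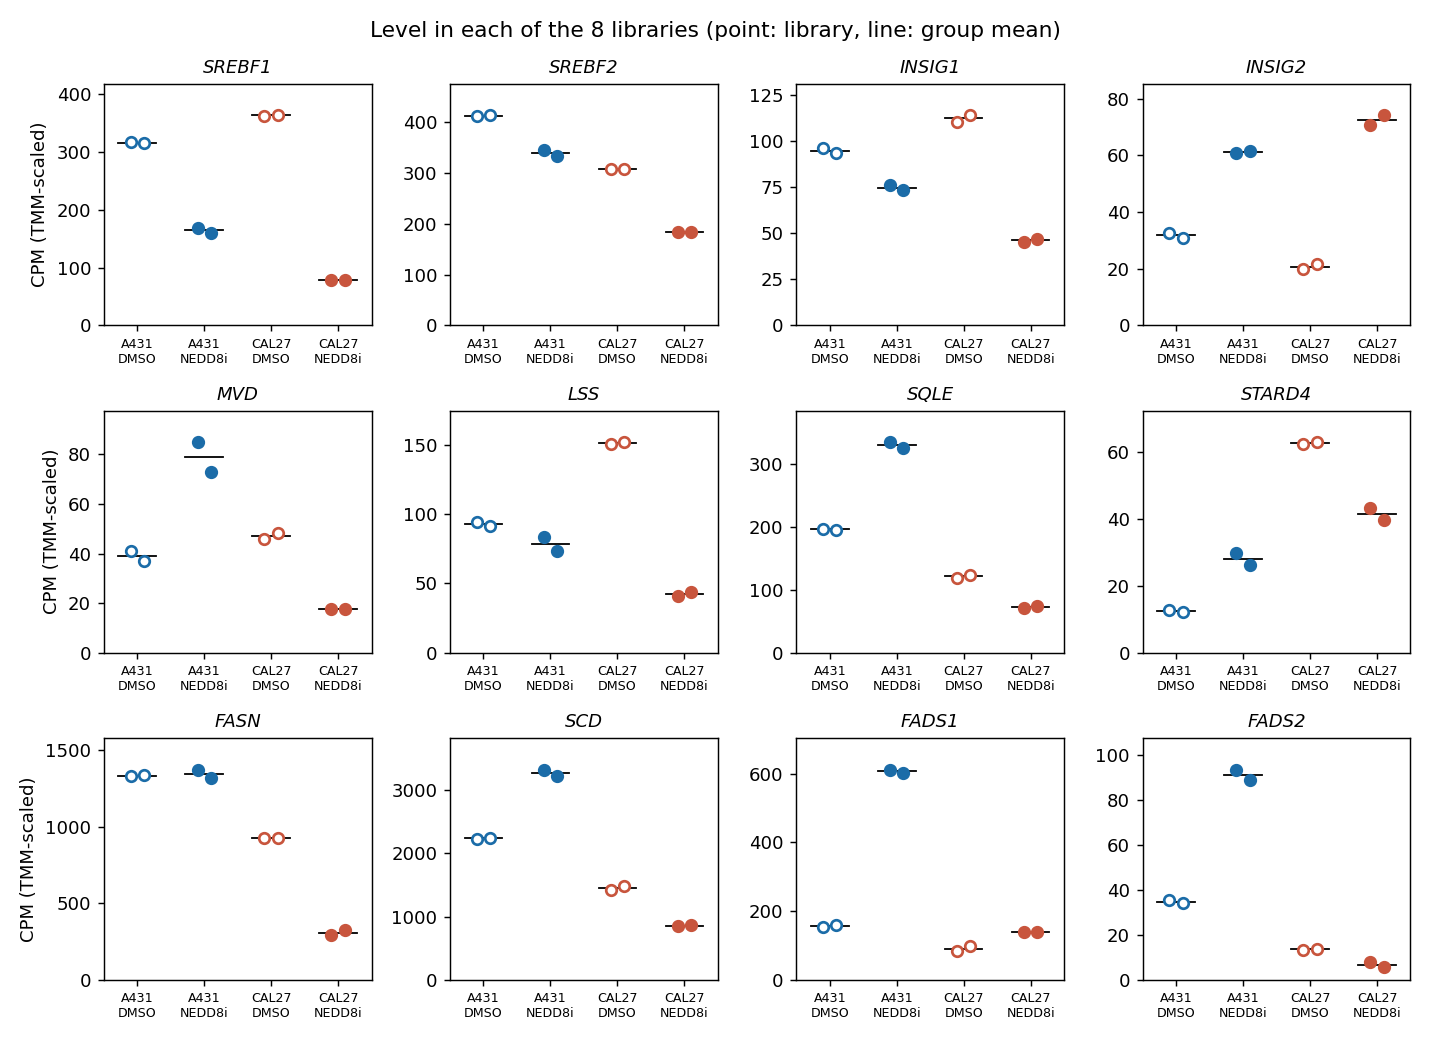
CPM (vertical axes, each from 0) of 12 of the genes in each of the 8 libraries, by group, with a point for each library and a bar at the group mean. SREBF1, SREBF2 and INSIG1 are lower and INSIG2 higher with NEDD8i in both lines, while MVD, SQLE, STARD4, SCD and FADS2 are higher in A431 and lower in CAL27.

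With DMSO alone, 12 of the 36 genes were higher in CAL27 than in A431, 17 were lower and 7 did not pass, where 58.9% of all genes tested passed (29.9% higher and 29% lower). Among genes of at least 10 CPM 78.8% passed, close to the 80.6% of the 36. At least a 2-fold difference was found in 7 of the 36, against 27.7% of all genes tested. STARD4 (log2 difference 2.34 ± 0.09, CAL27 minus A431), ABCA1 (2.11 ± 0.15), ABCG1 (2.07 ± 0.44) and DHCR7 (1.53 ± 0.06) were the higher of these in CAL27. FADS2 (-1.37 ± 0.11), PMVK (-1.21 ± 0.12) and IDI1 (-1.10 ± 0.07) were the lower. All 4 genes of sterol movement were higher in CAL27, MYLIP by 0.71 ± 0.10. The regulators differed less, with SREBF1 at 0.20 ± 0.04, INSIG1 at 0.24 ± 0.06, SREBF2 at -0.42 ± 0.04 and INSIG2 at -0.62 ± 0.08. Without A431 DMSO replicate 2 or CAL27 DMSO replicate 2, the small MVD difference (0.27 ± 0.08) did not pass (0.19 and 0.23, edgeR adjusted p = 0.119 and 0.0953), nor did that of AACS (0.23 ± 0.06) without the former (0.19, edgeR adjusted p = 0.0655).

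A wider list of 44 genes of sterol and fatty acid handling, which holds none of the 36, moved in both directions in each line. In A431, 16 rose, 10 fell and 18 did not pass, so that 59.1% passed against 43.6% of all genes tested. In CAL27, 15 rose, 21 fell and 8 did not pass, so that 81.8% passed against 49.6%. Among genes of at least 10 CPM, 67% passed in A431, more than in the wider list, and 73.5% in CAL27. ERG28, MBTPS2 and CPT1A, 3 of the 44, rose in A431 and fell in CAL27, as did 3.29% of all genes tested and 6.09% of those of at least 10 CPM. The largest A431 changes that passed were FAXDC2 (-4.77 ± 0.39), ME1 (2.34 ± 0.05), LPIN1 (1.58 ± 0.13), NPC1 (1.12 ± 0.05) and CPT1A (0.91 ± 0.11). ME1, malic enzyme, supplies NADPH, and NPC1 moves cholesterol out of lysosomes. In CAL27, apart from MLXIPL, they were ACSL5 (-2.01 ± 0.09), PLIN2 (-1.60 ± 0.37), NR1H3 (-1.41 ± 0.20), NPC1 (1.34 ± 0.05) and ACACB (-1.26 ± 0.34). NPC1 therefore rose in both lines, and PLIN2, a coat protein of lipid droplets, and NR1H3, an LXR gene, fell in CAL27, PLIN2 on 30 and 28 counts with DMSO and 10 and 8 with NEDD8i. MLXIPL also passed as lower in CAL27, but it held 6 and 12 counts in the CAL27 DMSO libraries and 0 in both NEDD8i libraries. These are too few for a fold, and the A431 value of MLXIPL, 1.65 ± 0.96, did not pass.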

How the data were processed

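RNA of 8 libraries (QuantSeq FWD, which reads transcript ends next to poly(A) tails) was counted by the authors, and the deposited tables hold whole-number read counts for each gene. Reads were aligned to GRCh38 with STAR, per the submitters' processing notes, and counted with featureCounts 2.0.8 over GENCODE 39 exons without strand, per the file headers. The counting command set paired-end mode without counting fragments, and 70.2% to 76.7% of low counts were even. If each mate was counted, as that command reads, counting errors derived from these counts are too small. Reads over several genes or places were dropped by that command. Neither the filter on alignments nor the STAR version is given in these sources.

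Symbols were matched for 61415 of 61533 identifiers. edgeR 4.0.16 (R 4.3.3) fitted 1 mean per group by quasi-likelihood to the 18738 genes that passed filterByExpr, with TMM scaling. Each gene had 4 residual degrees of freedom, and its spread was moderated by that of the other genes (12.3 prior degrees of freedom). The small p-values therefore rest largely on spread shared over genes. Benjamini-Hochberg adjustment ran over all genes tested. Calls needed an adjusted p under 0.05. SE is the log2 fold change over the root of its F value. CPM were computed here from the deposited counts. Overlap of exons used GenomicRanges 1.54.1 and was taken over all exonic bases, not only the transcript ends that these libraries read. A chi-square test of the counts of replicates gave 5.31 to 10.4 per degree of freedom, so no library was a copy. The fit was tested on simulated data. Members, lists and tests were chosen with earlier results of these data known. Of the 36 genes, every library is printed for those called in a line at a log2 change of 1 or more in size, called in opposite directions in the lines, or called for a difference of responses of 1 or more in size, and for SREBF1, SREBF2, INSIG1 and INSIG2. Of the wider list, at most 6 genes per line are named for the size of their change. Others are named for calls in opposite directions, or as examples under the other observations.

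Alternatives were DESeq2 1.42.0, RLE factors, no TMM (for the tests, chosen after seeing the data), other filters, each line alone, halved counts, a replicate block, other branch membership, each library left out, and for motifs the whole promoter window.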

Additional observations from a re-analysis of the deposited data

Results flagged for a closer look

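The 31 genes below are listed because the test of the difference itself, the CAL27 response minus the A431 response in the edgeR fit, passed at an adjusted p under 0.05. Values are differences of log2 fold changes, with negative values where CAL27 was lower, and 34% of all genes tested passed the same test. Among the regulators the values were -1.26 for SREBF1, -0.46 for SREBF2, -0.44 for SCAP, -0.94 for INSIG1 and 0.86 for INSIG2, the only positive value. In the mevalonate steps they were -1.30 for HMGCS1, -0.97 for MVK, -2.43 for MVD, -0.35 for IDI1 and -0.34 for FDPS. From squalene onward they were -0.72 for FDFT1, -1.50 for SQLE, -1.60 for LSS, -0.74 for CYP51A1, -1.14 for TM7SF2, -1.24 for MSMO1, -1.20 for HSD17B7, -0.86 for SC5D and -1.26 for DHCR7. STARD4 differed by -1.77 and MYLIP by -0.52. In the fatty acid branch the values were -0.72 for ACLY, -1.13 for ACSS2, -0.73 for AACS, -0.98 for ACACA, -1.60 for FASN, -1.32 for SCD, -1.44 for ELOVL6, -1.36 for FADS1, -2.41 for FADS2 and -0.50 for ACSL3. IDI1, CYP51A1 and MYLIP lost this call when some single libraries were left out, with values of -0.27 and -0.28 for IDI1, -0.72 to -0.52 for CYP51A1, and -0.45 and -0.49 for MYLIP. The libraries were A431 NEDD8i replicate 1 and CAL27 DMSO replicate 2 for all 3 genes, and also CAL27 NEDD8i replicate 1 for CYP51A1.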

How the results depend on the processing

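Of 2232 single-gene values under the alternatives, 2183 kept direction and side of the threshold, 27 passed newly, 22 no longer passed, and 0 reversed. Replicate numbers did not pair the libraries (correlations of deviations from -0.03 to 0.02), and with the replicate block 22 of the 36 genes rose and 7 fell in A431, 4 and 26 in CAL27, as without it. DESeq2 gave the same counts. Library size without TMM, chosen after seeing the data, moved the median of all genes to -0.11 in A431, -0.12 in CAL27 and 0.12 between the lines with DMSO. Under it 4 sterol enzymes fell in A431, and branch medians (sterol, fatty acid) were 0.43 and 0.46 in A431, -0.74 and -0.84 in CAL27, and -0.20 and -0.10 between the lines, where 3 fatty acid genes were higher in CAL27. Summed CPM were then 1880.1 (sterol, A431 NEDD8i), 1531 (sterol, CAL27 DMSO), 4717 and 6056 (fatty acid, A431 DMSO and NEDD8i) and 3575 (fatty acid, CAL27 DMSO). Without HMGCS1, CYP51A1 and EBP, which overlap other genes by over 20%, the sterol median was 0.44 in A431 and -1.05 for the difference, and 1 sterol enzyme rose in CAL27. Without the 3 acetyl-CoA genes the fatty acid median was -0.87 in CAL27, -1.36 for the difference and -0.53 between the lines with DMSO, where 0 genes were higher, and with at least 1 CPM in a group 2 were. The fits without a library gave 1 to 3 sterol enzymes that fell in A431 (sterol median 0.44 to 0.60) and 1 to 3 that rose in CAL27 (-0.66 to -0.55). Difference medians ran from -1.05 to -0.91 (sterol) and -1.29 to -1.18 (fatty acid), and 0 to 2 fatty acid genes were higher in CAL27 with DMSO. Counts of calls over the 36 genes stayed within 1.5 times under each alternative. With the whole promoter window, 23 of 32 genes held CCAAT and 5 held CACGTG. With 2 libraries per group, 3 counts is the depth limit, and of the 36 genes ABCG1 lies nearest to it.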

Other observations

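Relatives of the enzymes above did not always move with them, and the examples here were chosen after their values were seen. Of the elongases, ELOVL6 rose in A431 and fell in CAL27 (0.57 and -0.87), ELOVL1, which acts on very long chains, rose in both (0.81 ± 0.05 and 0.79 ± 0.05), and ELOVL5, which acts on polyunsaturated chains, fell in both (-0.17 ± 0.04 and -0.39 ± 0.04). ELOVL7 rose in both (0.85 ± 0.09 and 1.19 ± 0.09). Of the long-chain acyl-CoA synthetases, ACSL1 and ACSL5 fell in both lines, ACSL1 by -0.26 and -1.25 and ACSL5 by -0.63 and -2.01, while ACSL4 rose in CAL27 (0.61 ± 0.06) and had -0.01 ± 0.06 in A431.

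Genes around the pathway also divided. LBR, which has sterol reductase activity as TM7SF2 does, rose in both lines (0.61 ± 0.04 and 1.19 ± 0.04), where TM7SF2 fell in CAL27 (-1.42). SOAT1, which stores cholesterol as esters, rose in CAL27 (0.86 ± 0.05) and had -0.03 ± 0.05 in A431. Of the proteases that release SREBPs, MBTPS1 fell in both lines (-0.46 ± 0.05 and -0.65 ± 0.05), and MBTPS2 rose in A431 and fell in CAL27 (0.49 ± 0.07 and -0.72 ± 0.08).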
